A study of Caenorhabditis elegans with 18 samples.

Results

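LEM-2 contact in wild-type embryos was measured by chromatin immunoprecipitation followed by sequencing (ChIP-seq), in 3 IP libraries and 3 libraries of input chromatin, 6 of the 18 libraries of the series. All 6 were chosen by their labels: strain N2 (Bristol), the wild type of Caenorhabditis elegans, as whole early embryos collected before the bean stage at 20 degrees, fixed with formalin, with a rabbit antibody against LEM-2 for the IP and none for the input. Per the labels, each group came from 3 independent biological replicates. The other libraries, of mutant strains, were not used here. Chromatin of all cells of an embryo was pooled, so the values average over cell types and over cells with and without contact at a locus.

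LEM-2 is an integral protein of the inner nuclear membrane with a LEM domain, and DNA that is close to it is recovered more often by the antibody than DNA of the nuclear interior. In C. elegans the chromosomes have no single centromere. The distal arms of the autosomes are rich in repeats and in methylated histone H3 lysine 9 and are known to lie at the nuclear periphery, while the gene-rich centres are known to lie more inside. ChIP-seq maps of LEM-2 are read as alternating LEM-2 domains and gaps along the arms.

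The deposited table held a log2 value for each of 200538 windows of 500 bp, and these were also averaged over 10029 bins of 10 kb. IP libraries held 23.4 to 38.7 M reads and inputs 35.0 to 47.3 M, with a median of 94 to 145 reads per window in the IP and 165 to 227 in the input. Libraries are named by the letters a, b and c of their columns. LEM-2 enrichment is the IP value minus the mean of the 3 inputs, on the log2 scale, so that 0 is the input level after each library was scaled to the same total. One input mean thus enters all 3 IP values, and the spread of the inputs is not part of their SD. Over windows, IP minus the input of the same letter correlated between columns with r = 0.80 to 0.86 (n = 200538 windows). Over 10-kb bins it correlated with r = 0.96 to 0.98 (n = 10029 bins). These correlations describe points along the genome, and no input is shared between columns in them.

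Column a stood apart from columns b and c. On chromosome V from 1646001 to 1647500, as numbered in the deposited table, IP a held 4 reads and input a 0, while IP b and c held 506 and 505 and inputs b and c 471 and 541. Further along V, from 2347501 to 2563000, the median window of input a was at 0.42 times its library's median window, against 1.76 and 1.84 times in inputs b and c. Over these 215.5 kb, IP minus mean input was -0.98 in column a, 0.89 in b and 0.93 in c, but IP minus the input of the same letter was 0.39, 0.23 and 0.23. The dip of IP a on the left of V in the plot of enrichment along the chromosomes is this segment. IP a was also the deepest IP library and had the widest range of enrichment. The main values are therefore given column by column, or also without column a.

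LEM-2 was enriched over much of the autosomal arms and depleted over most of the autosomal centres. On X, more windows were depleted than enriched. Chromosomes were cut into 3 equal lengths, and the first and last of each autosome are called its outer parts and the other its middle part. At the scale of 500 bp, with limma and a threshold of 0.05 on the Benjamini-Hochberg adjusted p, 49668 windows were called enriched, 24.8% of all windows, and 81796 depleted, 40.8%. Of the 110066 windows in the outer parts 42.3% were enriched and 20.9% depleted. In the middle parts 74.8% of the 55034 windows were depleted and 1.02% enriched. Among the 35438 windows of X, 49.7% were depleted and 7.18% enriched.

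At the scale of 10 kb the same test called 3221 bins enriched (32.1% of bins) and 5311 depleted (53.0%). Without IP a the counts were 3235 and 5456. The split between enriched and depleted depends on the scaling. The median bin was at -0.25, and on median-centred values, where it was at 0.03, 4285 bins were enriched (42.7%) and 4033 depleted (40.2%). For windows the median-centred split was 66747 enriched (33.3%) and 55515 depleted (27.7%).

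Bins of the outer parts spanned a broad range. From the 5th to the 95th percentile they ran from -1.08 ± 0.17 to 1.09 ± 0.14 (SD, n = 3 IP libraries), with a median of 0.27 ± 0.07. Bins of the middle parts ran from -1.40 ± 0.28 to 0.02 ± 0.03, with a median of -0.85 ± 0.20. X lay between, from -1.16 ± 0.20 to 0.47 ± 0.08, with a median of -0.46 ± 0.08. The inputs, each minus the mean of the other 2, had an SD over all bins of 0.11 ± 0.04, against 0.72 ± 0.13 for the IP libraries (SD, n = 3). Bins called neither enriched nor depleted were not all flat. In the outer parts, 395 of 945 such bins (41.8%) held both enriched and depleted windows, against 7.25% of the 2966 enriched and 6.84% of the 1593 depleted bins there.

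Each library was also measured on its own, with no input subtracted, as the mean log2 level over all outer parts less the mean over all middle parts. This arm contrast was 1.03 in IP a, 0.67 in IP b and 0.66 in IP c. It was -0.19, -0.17 and -0.14 in the inputs a, b and c. All 3 IP libraries lay above all 3 inputs, and the inputs held slightly fewer reads on arms than in centres. The difference was 0.95 on the log2 scale, a ratio of 1.93 (exact two-sided permutation p = 0.1, which is the lowest possible for 3 against 3, and 0.1 with Benjamini-Hochberg adjustment over 8 comparisons). Without IP a it was 0.83. The difference was largest on III, at 1.18, and on I, at 1.09, and smaller on II, IV and V, at 0.93, 0.83 and 0.81. On X it was 0.29, with IP values of 0.30, 0.20 and 0.21 and input values of -0.07, -0.05 and -0.03. On each of the 6 chromosomes every IP library lay above every input, with the same exact permutation p of 0.1.

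**Figure D1:**
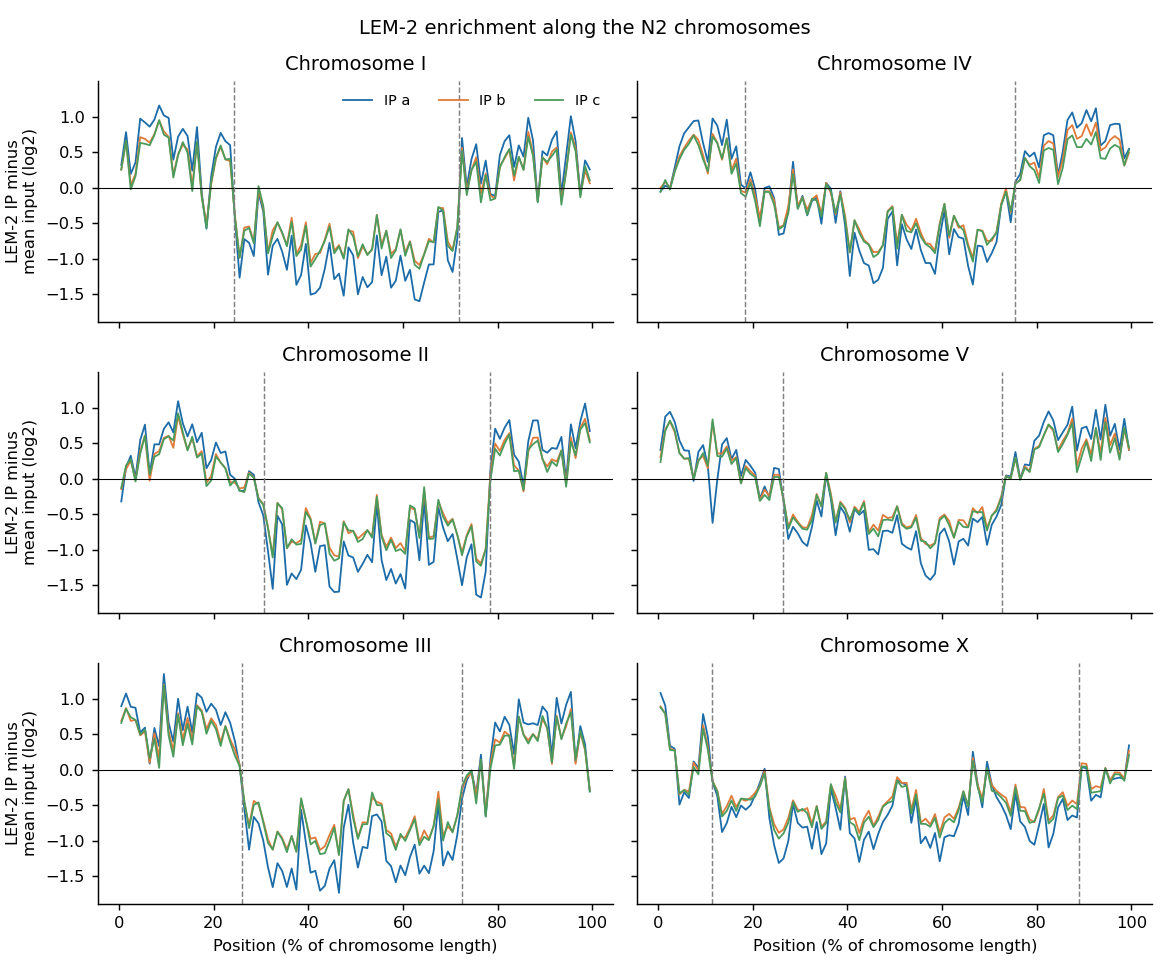
Mean LEM-2 enrichment (IP minus mean input, log2) in steps of 1% of chromosome length, with 1 line per IP library; dashed lines mark the 2 change points fitted to the mean of the 3 columns. The 3 lines rise and fall together, high on the arms and low in the centres, except for the dip of IP a near 12% of V. The line of IP a has the widest range, and X is high only near its left end.

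Along the autosomes, averaged in steps of 5% of length, enrichment was high and nearly level from 5% to 15%, at 0.52 ± 0.09 and 0.53 ± 0.04, and from 80% to the right end, at 0.49 to 0.53 (SD, n = 3). The step from 10% to 15% holds the segment of V that was low in column a. It was lowest just right of the middle, from 55% to 60%, at -0.94 ± 0.21, where 98.3% of 414 bins were depleted. The outermost 5% were not the peak on the left, at 0.41 ± 0.06, and on the right they were at 0.50 ± 0.08. The left and right arms differed in outline, although both sides changed over several steps. On the right, the steps from 65% to 80% were at -0.73 ± 0.14, -0.42 ± 0.07 and -0.003 ± 0.03. The step from 80% to 85%, at 0.49 ± 0.10, was close to the level of the chromosome end. On the left, enrichment fell from 0.53 to 0.26 ± 0.09, 0.11 ± 0.07 and -0.39 ± 0.05 between 25% and 30%. These means mix chromosomes whose borders lie at different positions. X had 1 clear arm: its first 5% were at 0.39 ± 0.03, the next 5% at 0.02 ± 0.03, and its last 5% at -0.04 ± 0.02, with the lowest level from 55% to 60%, at -0.87 ± 0.17.

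The borders between arms and centre were located in each IP library as the 2 change points of a least-squares fit of 3 constant levels to its 10-kb bins. Columns a, b and c put 6 of the 12 borders in the same bin, 8 within 50 kb of each other, and 3 more than 300 kb apart. On II the left border lay at 4550 to 4690 kb and the right at 11980 kb in every column. On III the borders lay at 3600 and 10000 kb, and on IV at 3210 to 3720 and 13210 to 13250 kb. On V they lay at 4330 to 5500 and 15200 to 15590 kb, and the range of 1170 kb on the left was the widest of all. With the input of the same letter, which removes the dip of column a, the left border of V was again at 5500 kb in column a and at 4330 and 4340 kb in b and c. On X the borders lay at 2030 to 2040 and 15750 kb. The fit had an R2 over bins of 0.49 to 0.72 on the autosomes and of 0.30 to 0.31 on X.

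Between the change points lay 48.5%, 51.2% and 50.5% of the autosomal length in columns a, b and c, a mean of 50.1 ± 1.41% (SD, n = 3). The centre of III was lowest, at -0.94 ± 0.22, followed by II, at -0.88 ± 0.20, and I, at -0.85 ± 0.19. Those of V, at -0.60 ± 0.14, and IV, at -0.51 ± 0.10, were less depleted (SD, n = 3). The order III, II, I, V, IV, from the lowest, was the same in all 3 columns, although the differences between neighbours on means were smaller than the SD except between I and V. Arms were highest on the left of III, at 0.60 ± 0.10, and on the right of IV, at 0.57 ± 0.11. The left arms of II, at 0.26 ± 0.06, and V, at 0.31 ± 0.05, were among the lowest of the autosomes; II was the lower in columns b and c, and V in column a. On X the left arm was at 0.21 ± 0.03 and the right end, at -0.09 ± 0.03, stayed below the input level.

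To measure the sharpness of these borders without the data that placed them, each border was located in 2 columns and read in the third, as its IP minus its own input. Over the 10 autosomal borders the last 250 kb of the centre were at -0.66 ± 0.05 and the first 250 kb of the arm at 0.16 ± 0.07 (SD, n = 3 left-out columns). Enrichment rose further inside the arm, to 0.50 ± 0.13 at 1500 to 1750 kb. In the centre it went down to -0.81 ± 0.14 at 1000 to 1250 kb from the border. A single step of 250 kb thus held most of the change, between plateaus that were not level.

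Borders differed from each other by more than the columns differed at 1 border. The right border of II was the steepest, at 1.51 ± 0.18 between the 250 kb on either side, from -1.02 ± 0.12 in the centre to 0.49 ± 0.07 in the arm. The 2 borders of I followed, with 1.31 ± 0.21 and 1.21 ± 0.22. Those of III were at 0.89 ± 0.17 and 0.81 ± 0.15, about the middle of the range, although their arms and centre, 1 to 2 Mb away, differed most, by 1.70 ± 0.34 and 1.58 ± 0.39. The left border of IV was the shallowest, at 0.27 ± 0.03, from -0.19 ± 0.16 to 0.08 ± 0.14. It was placed at 3210 kb with column a or b left out and at 3720 kb with c left out. These SDs thus mix 2 positions, with steps of 0.26, 0.24 and 0.30 in a, b and c. The borders of V also moved with the column left out. The right border of IV had a step of 0.49 ± 0.09, against 1.35 ± 0.14 between stretches 1 to 2 Mb away. IV therefore passed from centre to arm over a longer distance, while I and II (right) passed within 250 kb. On X the steps were 0.60 ± 0.14 and 0.76 ± 0.11.

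For chromosomes II to V and X, the 10-kb bins with the highest and the lowest enrichment were examined in every library. They were taken from the called bins in which all 3 IP libraries lay beyond all 3 inputs, which is therefore no finding here. The highest was on III from 320001 to 330000, close to the left end. Its IP level, as log2 of scaled reads per window, came to 10.004, 9.76 and 9.63 for the 3 columns in order, and its input level was 8.04, 8.02 and 7.90. The input of this bin was itself above the median input window, which was at 7.38 to 7.42. Its enrichment was 1.81 ± 0.19 (SD, n = 3; limma SE 0.10, adjusted p = 1.2e-06).

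The highest bin of X lay near its left end, from 200001 to 210000. Its IP levels of 8.74, 8.57 and 8.55 stood above input levels of 7.21, 7.23 and 7.25, and its enrichment was 1.39 ± 0.10. On IV the highest bin, from 16980001 to 16990000, had IP levels of 8.87, 8.60 and 8.36 and input levels of 7.47, 7.16 and 6.87, and an enrichment of 1.44 ± 0.25. In this bin IP and input fell together from a to c, so the differences within letters were closer than the enrichments. The highest bins of II, from 13550001 to 13560000, and V, from 19800001 to 19810000, were at 1.39 ± 0.22 and 1.36 ± 0.11 (SD, n = 3). Those of II, IV and V all lay on the right arm.

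The lowest bins were alike in depth on all 5 chromosomes. Enrichment was -1.63 ± 0.24 on III from 5950001 to 5960000, -1.62 ± 0.19 on II from 11690001 to 11700000, -1.62 ± 0.20 on X from 7350001 to 7360000, -1.61 ± 0.08 on V from 6880001 to 6890000 and -1.57 ± 0.19 on IV from 7140001 to 7150000 (SD, n = 3). These values differed by less than the spread between columns. The bin of II held IP levels of 5.39, 5.62 and 5.77 against input levels of 7.14, 7.18 and 7.33. It lay in the right part of II by length but inside its centre by the change points, and the bin of V likewise lay inside the centre. Adjusted p in limma was between 1.2e-06 and 6.67e-05 for the 10 bins.

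**Figure D2:**
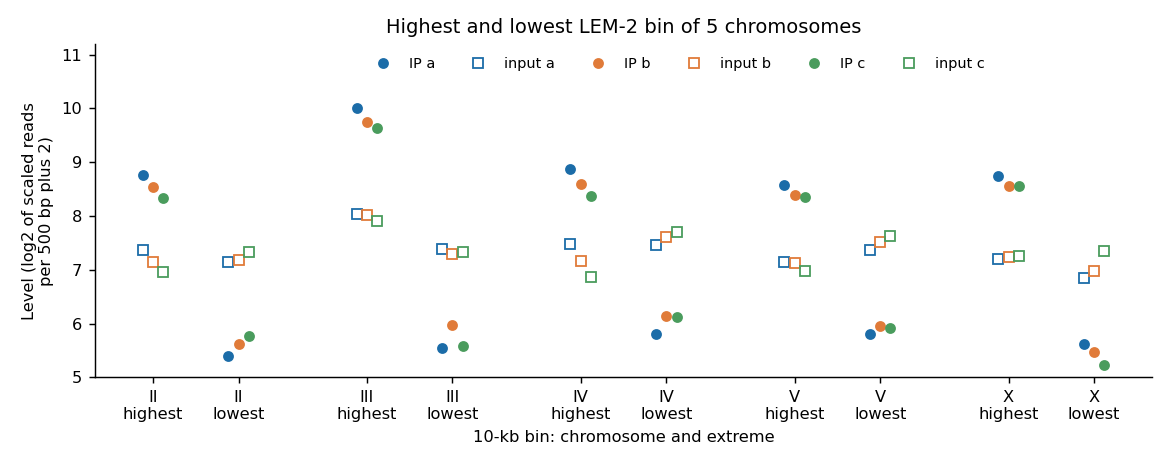
Level of each library (log2 of scaled reads per 500 bp plus 2) in the highest and lowest 10-kb bin of 5 chromosomes; filled circles are IP and open squares input, and colours give the column letter. The highest bin of III stands above the others in IP and in input, and the lowest bins have IP levels between 5.23 and 6.14 and inputs between 6.85 and 7.70.

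Domains and gaps were then called at 500-bp resolution. A domain was a run of windows whose running mean over 5 windows (2.5 kb) was above 0, and a gap a run at or below 0. Domains covered 40.2%, 39.6% and 38.7% of windows in columns a, b and c, 39.5 ± 0.72% (SD, n = 3). Their number was less steady, with 2049, 3125 and 3740, a mean of 2971 ± 856. Column a, the deepest, had the fewest and column c, the shallowest, the most. With IP libraries thinned to the reads of the shallowest, the numbers were 2148, 3175 and 3740, so the columns still differed at equal IP depth. Without column a the mean was 3433.

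By number, most domains were short. The median domain was 5, 3.5 and 3 kb long in columns a, b and c, and the median gap 4, 3 and 3 kb. Inputs treated alike, each minus the mean of the other 2, gave medians of 2 to 2.5 kb for both, and 13056 to 17940 domains. In the outer parts the median IP domain was 8, 5.5 and 4 kb, against 2 to 3 kb in the inputs. By length, IP and input were further apart. In the IP libraries 50% of the domain length lay in domains of at least 67, 41 and 37.5 kb, against 4.5 to 6.5 kb in the inputs. For gaps the values were 410, 241 and 196 kb. The longest domain of a column was 404.5, 323.5 and 366 kb and the longest gap 1789, 1868.5 and 1191 kb.

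Long domains lay mainly in the outer parts. Each domain or gap was counted whole in the part that held its midpoint, and shares by part are of the length so counted. In the outer parts 63.3 ± 1.32% of this length lay in domains, and 50% of the domain length was in domains of at least 55.3 ± 18.6 kb. There 61.3 ± 20.5 domains reached 100 kb, ranging from 44 in column c to 84 in column a. Only 6.16 ± 0.67% of the length counted in the middle parts lay in domains. The length-weighted median there was 10.3 ± 2.47 kb, and no domain of any column reached 100 kb. The longest there was 49 to 64 kb, and 35 to 51 domains reached 10 kb. X had 19.7 ± 0.73% of its windows in domains and 1 or 2 domains of 100 kb or more per column (SD, n = 3).

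Gaps showed the reverse. In the middle parts 50% of the gap length lay in gaps of at least 699 ± 119 kb, against 46.5 ± 24.0 kb in the outer parts and 226 ± 104 kb on X (SD, n = 3). The outer parts still held 28 to 31 gaps of 100 kb or more, and 310 to 378 of 10 kb or more. The outer parts, taken by length, reach beyond the change points into the centres, so not every one of these gaps lay in an arm. The middle parts held 295, 424 and 531 domains in columns a, b and c, most of them short. At the scale of 10 kb, with each bin above or at and below 0, 555 ± 43.0 domains had a median length of 33.3 ± 5.77 kb and 50% of their length lay in domains of at least 153 ± 25.2 kb. Gaps then had a median of 20 kb in every column and a longest run of 4910, 3290 and 5170 kb (SD, n = 3).

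On the mean profile of the 3 columns, the longest domain of V ran from 357001 to 724000, 367 kb near the left end, at 0.90, 0.77 and 0.79 in columns a, b and c, with 91.3% of its windows enriched. That of IV ran from 15051501 to 15374500, 323 kb on the right arm, at 1.02, 0.86 and 0.73. On II it covered 243.5 kb from 1810001 to 2053500, and on X 224 kb from 64501 to 288500, with 1.10, 0.94 and 0.94. The longest domain of III was the shortest of the 5, 183 kb from 1234001 to 1417000, and the most enriched, at 1.29, 1.12 and 1.11. None of these domains except that of IV held a depleted window, and there 0.15% were. The longest domains and gaps were picked by the same IP minus input values that enter the window calls. Their shares of enriched and depleted windows therefore follow largely from that choice and are no finding here.

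The longest gap was on II, 2227.5 kb from 5275501 to 7503000, at -1.19, -0.79 and -0.82 in columns a, b and c, with 85.8% of its windows depleted. Gaps of 1794.5 kb on X, from 9608001 to 11402500, of 1788 kb on V, from 12130001 to 13918000, and of 1582.5 kb on IV, from 6940001 to 8522500, had mean levels of -0.77, -0.75 and -0.84. The longest gap of III, 1192 kb from 4142001 to 5334000, was the deepest, at -1.12 ± 0.25 (SD, n = 3), with 95.5% of its windows depleted. In each of these 5 gaps column a was the lowest.

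How far short domains and gaps recur was measured by calling them in 2 columns, IP mean minus input mean of the same letters, and reading the third. Of domains under 2 kb, 34.9%, 48.4% and 51.5% were also above 0 in left-out columns a, b and c. Their mean level there was -0.04 ± 0.04 (SD, n = 3), at about the input level. For domains of 2 to 5 kb the share was 52.8%, 71.5% and 72.6%, and for those of 5 to 10 kb 79.4%, 94.6% and 84.9%. From 10 to 50 kb it was 97.2% to 99.2%, and from 50 kb 100% in each column. Of all single windows, 40.4% were above 0 as IP minus mean input, and the rest at or below it. In the outer parts 62.0% of windows were above 0, and in the middle parts 8.37%. The share for domains under 2 kb was 47.4 ± 2.36% in the outer and 43.7 ± 24.7% in the middle parts (SD, n = 3). It was thus below the share of all windows in the outer parts and above it in the middle parts.

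Gaps behaved alike. The share below 0 was 39.8% to 56.3% under 2 kb and 52.3% to 81.2% at 2 to 5 kb. It was 77.2% to 93.0% at 5 to 10 kb, 96.5% to 98.7% at 10 to 50 kb and 100% from 50 kb. Pooled over all parts, column a, as the column left out, gave the lowest share in all classes under 10 kb, for domains and gaps. By part this did not hold throughout. For gaps under 2 kb in the middle parts column a gave 68.3%, against 44.8% and 35.2% in b and c. In the outer parts it gave 29.3%, against 61.3% and 61.8%.

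The level of a domain grew with its length. In the left-out column it was 0.08 ± 0.03 for domains of 2 to 5 kb, 0.20 ± 0.04 for 5 to 10 kb, 0.43 ± 0.09 for 10 to 50 kb and 0.71 ± 0.14 from 50 kb, an IP of 1.64 times the input (SD, n = 3). Gaps deepened likewise from -0.15 ± 0.15 at 2 to 5 kb to -0.69 ± 0.16 from 50 kb, where the IP was 0.62 times the input. Domains from 50 kb made up 49.3 ± 8.85% of the domain length and those under 2 kb 1.53 ± 0.47%, although 715 ± 222 were that short. In the middle parts the level of domains of 10 to 50 kb was 0.21 ± 0.10, against 0.46 ± 0.12 in the outer parts. In every left-out column the middle parts were the lower.

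**Figure D3:**
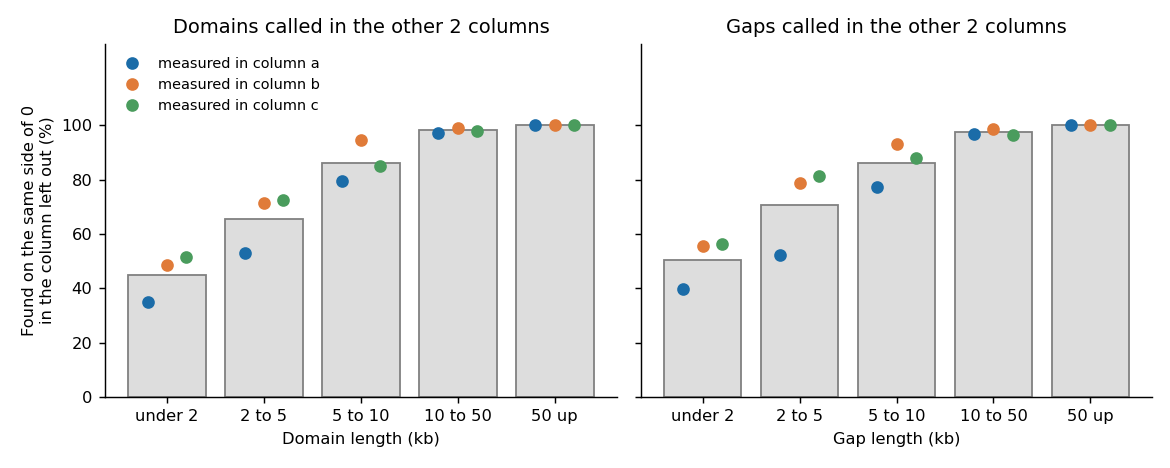
Share of domains (left) and gaps (right) called in 2 columns that lay on the same side of 0 in the column left out, by length class; bars are means and points the 3 left-out columns. Pooled over all parts, the share is near 50% under 2 kb and 100% from 50 kb, and column a is lowest in the classes under 10 kb.

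The sharpness of domain borders was measured where a domain and a gap of at least 10 kb each met, again with the border called in 2 columns and read in the third. There were 223, 260 and 292 such borders with columns a, b and c left out. The step, as the mean 2 to 10 kb inside minus that 2 to 10 kb outside, was 0.92, 0.90 and 0.92 (log2), with a mean of 0.92 ± 0.01 (SD, n = 3). IP over input was thus 1.89 times higher inside than outside. In the left-out column 100% of the borders stepped up into the domain, and 85.3 ± 3.14% did so by more than 0.5. Single borders varied, with an SD of 0.40 ± 0.04 and quartiles at 0.62 and 1.19. Over the same borders the level of the left-out input itself stepped by 0.20 in a, 0.08 in b and -0.001 in c, and its part in the step of IP minus input was not tested.

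The mean profile passed from 10% to 90% of the step over 5.66, 6.68 and 5.96 kb in columns a, b and c, 6.10 ± 0.52 kb (SD, n = 3). This width spanned 2.6 to 2.9 kb outside the border and 3.1 to 3.8 kb inside. The level went from -0.54 ± 0.04 at 5 to 10 kb outside to 0.43 ± 0.05 at 5 to 10 kb inside. Between the first kb on either side it changed by 0.18, 0.23 and 0.25, which was 22.5 ± 4.02% of the whole. This is the width of a mean over borders, each placed to within the 2.5-kb running mean, and not that of a single border.

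Steps were higher in the outer parts than elsewhere. Over 180 to 238 borders in the outer parts the step was 0.98 ± 0.02. Over 15 to 20 borders in the middle parts it was 0.61 ± 0.08, and over 23 to 34 on X 0.64 ± 0.02 (SD, n = 3). In each left-out column the outer parts exceeded the middle parts and X, by amounts larger than the spread between columns. The outer domains stood higher next to their borders, with a level of 0.47 ± 0.07 inside against 0.25 ± 0.06 in the middle parts and 0.25 ± 0.02 on X. Outside it was -0.57 ± 0.06 in the outer parts, -0.40 ± 0.12 in the middle parts and -0.43 ± 0.02 on X.

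**Figure D4:**
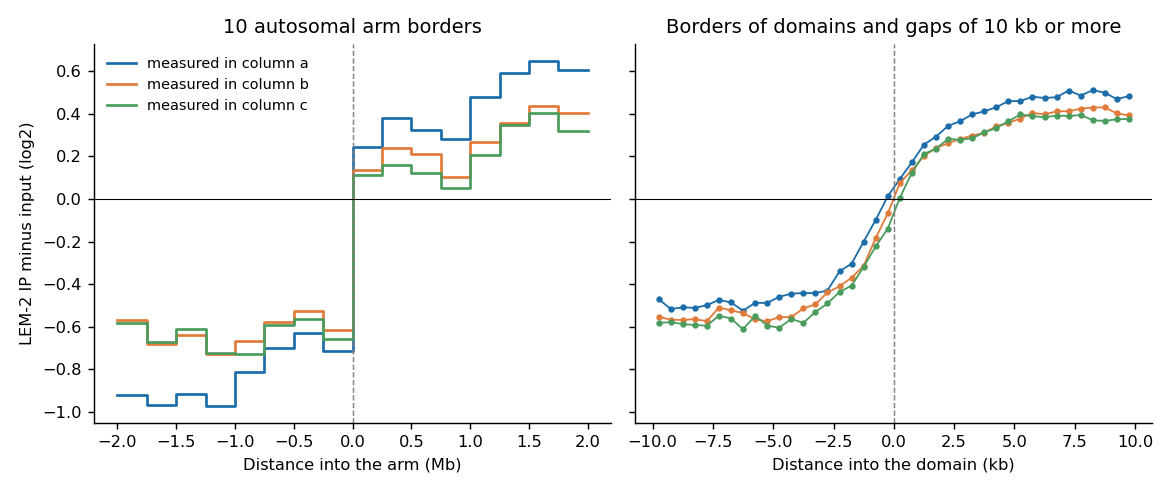
Mean IP minus input of the same letter (log2) around 10 autosomal arm borders in steps of 250 kb (left) and around borders of domains and gaps of 10 kb or more in windows of 500 bp (right); borders were called in 2 columns and each line is the column left out. Arm borders go from -0.66 to 0.16 within 1 step and on to 0.50 inside the arm, and domain borders rise by 0.92 within about 6.10 kb.

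Fine structure was measured as the variation that columns share. For adjoining stretches of one length, the difference in IP minus input of the same letter was taken in each column, and the covariance of these differences between columns, which holds no counting noise of a single library, was written as a shared SD. In the outer parts it rose from 0.14 ± 0.09 at 0.5 kb to 0.27 ± 0.04 at 2.5 kb, 0.36 ± 0.01 at 10 kb and 0.39 ± 0.01 at 50 kb, and was 0.37 ± 0.01 at 100 kb (SD over 3 pairs of columns, which share columns). In the middle parts it rose from 0.09 ± 0.06 at 0.5 kb to 0.16 ± 0.03 at 2.5 kb and 0.23 ± 0.01 at 10 kb, and went on rising to 0.35 ± 0.02 at 100 kb. X, at 0.24 ± 0.01 at 10 kb, ran close to the middle parts up to 50 kb.

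As a plain difference, the excess of the outer over the middle parts was largest around 5 to 10 kb. At 5 kb, shared SD was 0.32 ± 0.02 in the outer parts and 0.19 ± 0.02 in the middle parts, a difference of 0.13 ± 0.01 that was 0.12, 0.13 and 0.14 in the 3 pairs and larger than their spread. The difference was 0.05 ± 0.03 at 0.5 kb, 0.12 ± 0.002 at 10 kb, 0.10 ± 0.001 at 25 kb, 0.07 ± 0.01 at 50 kb and 0.01 ± 0.01 at 100 kb. The ratio was highest at shorter lengths, at 1.73 for 1 kb and 1.72 for 2.5 kb, and was 1.68 at 5 kb and 1.04 at 100 kb. Input chromatin was also more uneven in the outer parts: at 5 kb its own shared SD was 0.27 ± 0.01 in the outer and 0.22 ± 0.01 in the middle parts (SD over 3 pairs), and its part in the excess was not tested. Input variation was largest at the shortest lengths, at 0.34 ± 0.02 in the outer parts at 0.5 kb, and fell to 0.11 ± 0.01 at 100 kb, the reverse of the IP minus input.

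At 0.5 kb little of the variation of IP minus input was shared. In the outer parts the shared part was 15.7% of its variance between adjoining windows, in the middle parts 5.91% and on X 6.40%. Much more was shared without the subtraction, with 64.5%, 39.9% and 51.2% in the IP alone and 69.9%, 60.3% and 65.6% in the input alone. At 5 kb it was 79.2%, 56.2% and 61.3%, and at 50 kb 95.2% or more in each. At 0.5 kb the pairs were also unequal: columns b and c shared an SD of 0.25 in the outer parts, against 0.08 for a and b and 0.10 for a and c. The values for the middle parts were 0.16, 0.05 and 0.06. On X they were 0.18, -0.03 and 0.03, where the sign is that of the covariance. In the IP libraries alone, with no input subtracted, the pair b and c was again higher in the outer parts, with 0.49 against 0.40 and 0.42, and in the inputs alone less so, with 0.36 against 0.34 and 0.32. The inequality at 0.5 kb was thus present in the IP alone as well as with the input subtracted. A shared SD is the square root of a covariance, so gaps between pairs at unlike levels cannot be compared directly. For IP minus input, from 10 kb up the 3 pairs were within 0.05 of each other.

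**Figure D5:**
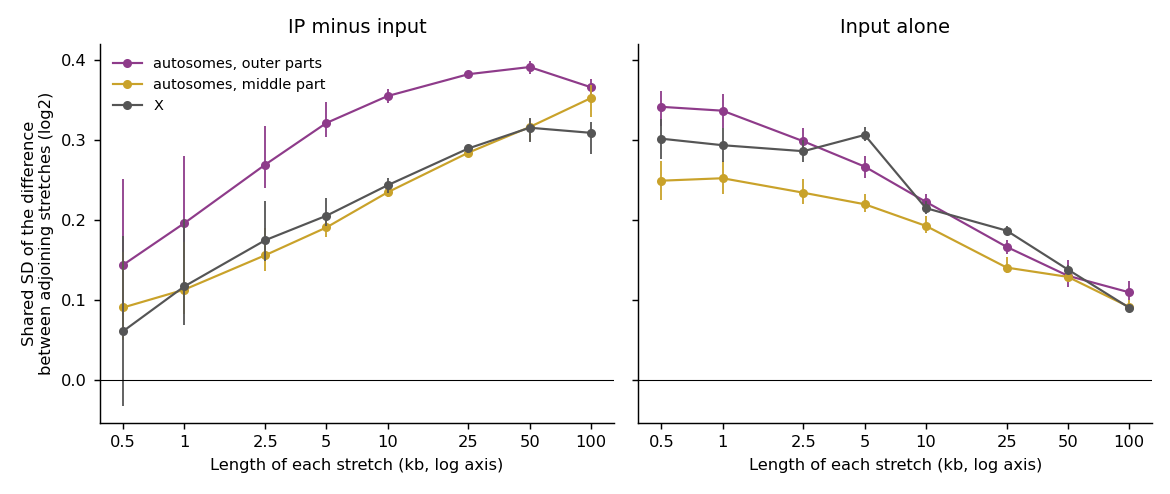
Shared SD of the difference between adjoining stretches (log2), by stretch length on a log axis, for IP minus input (left) and for input alone (right); points are means of 3 pairs of columns and vertical lines their range. For IP minus input the outer parts lie above the middle parts, 0.32 against 0.19 at 5 kb, and approach them at 100 kb, while input variation is lower at 100 kb than at 0.5 kb.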

How the data were processed

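Per the values of the deposited table, the authors gave log2 of scaled reads per 500-bp window plus 2, with every library scaled to 35.17 M reads; whole reads were recovered for 100% of values within 0.01. The sources used here do not give the aligner, the counting or the handling of duplicates. The submitters' processing notes name ce10, but the table's chromosome ends differ, so coordinates are given as in the table and no gene or sequence is assigned. The columns carry letters, not replicate numbers.

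The test of windows and 10-kb bins was that of limma 3.58.1 (R 4.3.3), with a trended prior, 6 libraries, 4 residual degrees of freedom and Benjamini-Hochberg adjustment over all windows or bins. 36 windows held under 10 mean input reads and were kept. Domains, borders and shared SDs were computed in Python 3.11.15 (numpy 2.4.6, pandas 2.3.3, scipy 1.17.1, matplotlib 3.10.9) and, like limma, tested on simulated data. Named bins and runs are, for II to V and X, the extremes among called bins whose 3 IPs lie beyond all inputs, and the longest domain and gap. The libraries, tests and rules were chosen with earlier results of these data known.

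Letters were taken to pair IP with input. Deviations from group means correlated by 0.28, 0.24 and 0.31 within letters a, b and c over 10-kb bins (0.19, 0.05 and 0.21 over windows). Between letters they reached 0.27 over bins, for IP c with input b, which is above the 0.24 within b. Over windows they reached 0.10, and IP b correlated more with input a (0.10) than with input b (0.05). For letter b these values thus do not show the pairing. Column a lacks the same interval of V in IP and input. Alternatives tried were bin size, scaling, running mean, threshold, input choice, filters, leaving out libraries and a replicate block.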

Additional observations from a re-analysis of the deposited data

How the results depend on the processing

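Of 106 recomputed values 89 were classed as unchanged, 17 as moved and 0 as reversed in direction. Counts of bins and windows had no SD to be judged by, and large shifts of these were still classed as unchanged. With median-centring, enriched windows went from 49668 to 66747 and depleted windows from 81796 to 55515. The larger of these 2 counts thus changed from depleted to enriched. Domain number depended on smoothing: 1550 with a running mean over 11 windows, 918 over 21 windows and 1576 with runs under 2 kb absorbed. Median domain length was then 8.83, 16.2 and 10.2 kb and median gap length 6.33, 10.8 and 6.17 kb. With the threshold at the median window, domains covered 49.1% of windows and the border step was 0.86. With flanks of 20 kb the border step was 0.93 and the width 7.46 kb, and called and measured on the mean of all libraries the step was 0.93. The difference in shared SD at 5 kb was 0.14 with columns b and c alone. Bins of 20 kb gave 1663 enriched and 2700 depleted, since there are fewer of them.

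Leaving out each library in turn gave an arm contrast of 0.83 to 1.01, 3045 to 3242 enriched and 5031 to 5456 depleted bins, and 2587 to 3433 domains. With letters as a replicate block, 3286 bins were enriched and 5269 depleted, and 53564 windows were enriched and 85108 depleted. The block changed no call reported here and moved no count by more than 1.5 times. The arm contrast within letters was 1.22, 0.84 and 0.80 (exact sign-flip permutation p = 0.25, the smallest that 3 pairs can give). Thinning IP libraries to the shallowest was chosen after seeing the data and gave a mean of 3021 domains.

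With 3 columns that share 1 input mean, SDs understate the full error, and total scaling fixes where 0 lies.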

Other observations

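Windows whose mean input exceeded 3 times the median window numbered 893, or 0.445% of the table. They had an enrichment of 0.18 in column a, 0.22 in b and 0.26 in c, with a mean of 0.22 ± 0.04 (SD, n = 3), so all 3 columns were above the input level there. Without them the share of variance held in common between columns at 0.5 kb was 15.5% in the outer parts, against 15.7% with them.

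The windows within called bins were not all called. In the middle parts, 1208 of 2457 depleted bins had all of their windows depleted, and in the outer parts 594 of 2966 enriched bins had all of their windows enriched. Among enriched bins of the middle parts it was 1 of 57, and on X 21 of 198.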
